A study of Homo sapiens with 54 samples.

Results

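The change that 2.5 µM of the compound coded CP18 made in A549 cells with an empty vector was measured against the same cells given vehicle. A549 is an established human lung adenocarcinoma cell line. The 6 libraries, 3 per group and out of 54 in the series, were chosen by their labels (CP18_2_5uM_E_V and DMSO_E_V), and 15747 of the 58870 genes listed passed a filter on low counts and entered the comparison. All 6 came from A549 cells stably carrying an insertless control vector and harvested after 48 h with 2.5 µM CP18 or with DMSO, the vehicle. The labels do not tie the code CP18 to a named compound, so it is kept as a code. Whether the vector-bearing cells were a pool or 1 clone is not given in the sources used here. The methods speak in general of independent biological replicates, but neither they nor the labels say that these libraries came from separate cultures, so p-values measure the spread between these libraries, which may be technical. Further sets of 3 libraries each, all at 48 h, serve as comparators. They are A549 cells with a USP18 expression vector given DMSO (DMSO_USP18_O_E) or 2.5 µM CP18 (CP18_2_5uM_USP18_O_E), empty-vector cells given 2.5 µM of another coded compound (CP14_2_5uM_E_V), and empty-vector cells given CP18 at 1 µM or 5 µM (CP18_1uM_E_V and CP18_5uM_E_V).

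The 6 libraries held from 17073545 to 25609062 expected counts, close to the range of all 54 (16673228 to 25609062). Levels are given in CPM, counts brought to a common library total by edgeR's TMM scaling, in the order of replicates 1, 2 and 3. They are not divided by gene length, so levels of different genes are not compared. The marker levels in this paragraph and the summed levels of small RNAs below were scaled by library total only, without TMM. A signed value in brackets after a gene symbol is its log2 fold change, CP18 over vehicle in empty-vector cells unless another comparison is named. The summed level of 23 epithelial and A549 marker genes was 21764 to 22284 CPM with vehicle and 21298 to 21365 CPM with CP18, carried mostly by KRT8, KRT18, KRT7 and ALDH1A1, and 4 of the 23 were at 0, among them CDKN2A. NKX2-1 and the surfactant protein genes, which mark alveolar type II cells, were at or near 0. ABCA3, another marker of those cells, was expressed, with a median of 52.8 CPM over the 6 libraries. Markers of fibroblasts summed to 14.8 to 17.7 CPM with vehicle and 15.8 to 16.9 with CP18, those of leukocytes to 41.0 to 42.0 and 42.0 to 44.4 (mostly CD68, with CD3D, CD3E and MS4A1 at 0), and those of endothelium to at most 0.527 CPM. In such bulk libraries, fewer cells of a kind and less RNA per cell cannot be told apart.

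USP18, the protease that removes the ubiquitin-like protein ISG15 from its targets and that the study set out to inhibit, kept its level. It (ENSG00000184979.9, chr22:18150118-18177397, plus strand) was at 10.5, 10.7 and 11.03 CPM with vehicle and 10.7, 10.7 and 10.1 CPM with CP18. The log2 fold change was -0.04 with a 95% interval of -0.18 to 0.09 (adjusted p = 0.834), so a larger change than that interval allows was not seen. ISG15 was low throughout, at 2.30, 1.90 and 2.21 CPM with vehicle and 3.61, 1.12 and 2.82 CPM with CP18, and the CP18 libraries lay on both sides of the vehicle libraries (log2 fold change 0.25, 95% interval -0.34 to 0.83). NQO1, which encodes a quinone reductase, differed by 0.03 on the log2 scale (adjusted p = 0.614).

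The results turn on 3 kinds of genes. Immediate early genes are switched on within minutes of a growth factor or stress signal, mostly through phosphorylation of the factors ELK1, SRF and CREB on their promoters, and many encode transcription factors (FOS, EGR1, NR4A1) or phosphatases that end the signal (DUSP1). A549 cells, although from lung, express a set of genes typical of liver, among them the fibrinogen chains and the liver factor HNF4A. Chaperones, factors that build ribosomes and proteasome subunits serve the making, folding and removal of proteins, and chaperones of the HSP90 and HSP70 families are the usual targets of the heat shock factor HSF1.

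CP18 at 2.5 µM produced many small shifts and few large ones. An adjusted p under 0.05 (edgeR's quasi-likelihood test with Benjamini-Hochberg adjustment over all genes tested), here termed called, was reached by 939 of 15747 genes (5.96%, and 19.1% at an unadjusted p under 0.05), 368 of them higher with CP18 (2.34%) and 571 lower (3.63%). Nearly all of the calls, 891, were among the 9880 well-expressed genes with a mean of at least 10 CPM over the 6 libraries, of which they are 9.02%, with 354 higher (3.58%) and 537 lower (5.44%). In these 891 the absolute log2 fold change had a median of 0.18 and quartiles of 0.14 and 0.24, 684 (76.8%) were under 0.25, 22 were over 0.5 and 10 over 1. The median standard error in well-expressed genes was 0.052 on the log2 scale, and the smallest called shift among them was 0.083. Of the 891, 865 (8.76% of well-expressed genes) also had all 3 CP18 libraries above or all 3 below the vehicle libraries, which held for 28.9% of well-expressed genes whatever their p and for 23.1% of all genes tested. Across all genes tested the median log2 fold change was -0.0054.

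**Figure D1:**
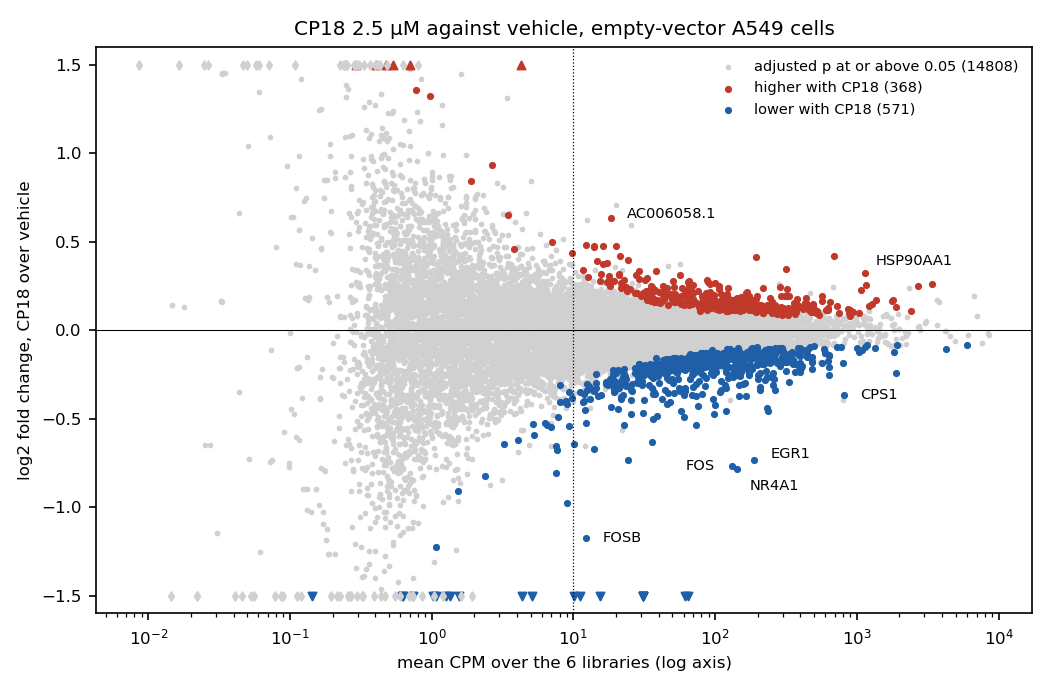
Log2 fold change of 2.5 µM CP18 over vehicle (vertical axis) against mean CPM over the 6 libraries (horizontal log axis) for the 15747 genes tested in empty-vector A549 cells; red and blue points are the 368 genes called higher and 571 called lower, grey points the others, and triangles or diamonds at the edges lie beyond ±1.5. Right of the dotted line at 10 CPM most called genes lie within 0.25 of 0, while FOS, EGR1, NR4A1 and FOSB stand between -0.74 and -1.17.

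The number of called genes depended on single libraries. It was 372 without vehicle replicate 1, 422 without vehicle replicate 2, 1145 without vehicle replicate 3, 451 without CP18 replicate 1, 744 without CP18 replicate 2 and 435 without CP18 replicate 3. It fell to 149 when the libraries at 1 and 5 µM CP18 took the place of the USP18 cells in the fit, and all 149 were among the 939. Of 156 called genes followed across the alternatives, 46 were called in every alternative tried, 84 lost the call in at least 1 leave-one-out fit and none changed direction. Well-expressed genes given below with their level in each library kept their call throughout, apart from FGB, NPM1, CCT5, GAR1, GABARAPL1, NRG1, RPPH1 and RN7SL1.

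Long transcripts and those rich in G and C were more often lower. Well-expressed protein-coding genes were split by transcript length into 3 bins of 3214. Of the longest, 9.43% were called lower and 1.77% higher, against 2.89% and 5.57% of the shortest. Split by GC content, 6.82% of the bin with the highest content were lower and 2.15% higher, against 3.73% and 4.92% of the bin with the lowest. With each library's own trend in level along both properties removed before testing, 701 genes were called, 348 higher and 353 lower. Counts with the trend removed are given below for some of the lists.

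The clearest fall was in immediate early genes. Of 36 genes listed, 33 were tested, and 20 of these were called (60.6%), all of them lower with CP18, against 3.63% of all genes tested. The median log2 fold change of the 33 was -0.33. The count of lower members was 17 to 20 over the 6 leave-one-out fits, 20 with DESeq2, 19 with the length and GC trend removed and 14 in the fit with 1 and 5 µM CP18. Their groups did not overlap, in the lower direction, for 24 of 33 members, against 12.6% of all genes tested (10.5% in the higher direction).

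The promoters of 4 of these genes, those of FOS, FOSB, EGR1 and DUSP1, are shown because these genes were called lower and are described below, and because motifs of their known upstream factors can be read in them. Each is the RefSeq sequence (GRCh38.p14) from 250 bases before the start of transcription to 50 after it, 300 bases 5′ to 3′ on the gene's strand. Capitals mark matches on either strand to TGACGT, the core of the CREB-binding cyclic AMP response element (read as ACGTCA on the other strand, and overlapping itself in the full element TGACGTCA), and to the CArG box that SRF binds. The windows are chr14:75278578-75278877, plus strand for FOS, chr19:45467746-45468045, plus strand for FOSB, chr5:138465229-138465528, plus strand for EGR1 and chr5:172771146-172771445, minus strand for DUSP1.
FOS: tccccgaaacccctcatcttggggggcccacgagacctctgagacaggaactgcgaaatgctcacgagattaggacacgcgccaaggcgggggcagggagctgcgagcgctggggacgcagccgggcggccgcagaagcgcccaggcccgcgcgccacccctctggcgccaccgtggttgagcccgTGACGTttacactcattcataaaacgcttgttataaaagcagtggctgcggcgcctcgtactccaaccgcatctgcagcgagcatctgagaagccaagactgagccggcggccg
FOSB: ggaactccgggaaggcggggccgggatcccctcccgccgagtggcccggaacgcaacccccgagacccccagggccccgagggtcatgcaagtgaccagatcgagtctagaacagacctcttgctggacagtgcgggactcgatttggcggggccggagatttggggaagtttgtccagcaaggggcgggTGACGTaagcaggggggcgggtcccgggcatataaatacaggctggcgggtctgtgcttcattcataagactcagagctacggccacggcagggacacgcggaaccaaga
EGR1: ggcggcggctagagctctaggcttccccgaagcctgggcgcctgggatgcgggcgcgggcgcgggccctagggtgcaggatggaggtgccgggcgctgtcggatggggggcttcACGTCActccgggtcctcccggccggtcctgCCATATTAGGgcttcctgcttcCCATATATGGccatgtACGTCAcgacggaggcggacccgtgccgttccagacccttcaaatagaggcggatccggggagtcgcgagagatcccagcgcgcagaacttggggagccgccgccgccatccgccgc
DUSP1: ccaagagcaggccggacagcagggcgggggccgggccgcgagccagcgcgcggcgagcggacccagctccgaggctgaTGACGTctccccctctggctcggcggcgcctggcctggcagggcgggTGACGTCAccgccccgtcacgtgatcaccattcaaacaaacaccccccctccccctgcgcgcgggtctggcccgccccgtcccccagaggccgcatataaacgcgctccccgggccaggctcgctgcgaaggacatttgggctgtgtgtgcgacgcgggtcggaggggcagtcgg
Counted from the start of transcription, the core lies at -64 in FOS and at -60 in FOSB, with no CArG box in either window. EGR1 has the core at -136 and -67 and CArG boxes at -105 and -83, and DUSP1 has the core at -172 and the full element at -125. Over RefSeq promoter windows of the same length, 2803 of 35116 (7.98%) hold the core and 1.29% a CArG box, and counted by gene, 2633 of 27305 (9.64%) hold the core and 1.6% a CArG box. Among 25 immediate early genes with a promoter window the core was found in 11 (44%), which were 8 of the 18 called lower and 3 of the 7 not called. The CArG box was found in 3, which were 1 of the 18 called lower and 2 of the 7 not called. The match is a description of these letters, and the share with the core was close in called and uncalled members.

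FOS, which encodes a subunit of the AP-1 transcription factor (ENSG00000170345.10, chr14:75278826-75282230, plus strand), was at 167, 178 and 153 CPM with vehicle and 93.9, 98.3 and 99.9 CPM with CP18. All 3 CP18 libraries lay far below the vehicle libraries, a fall of 41.2% (log2 fold change -0.77, standard error 0.052, adjusted p = 3.83e-08). FOSB, a second AP-1 subunit (ENSG00000125740.14, chr19:45467995-45475179, plus strand), stood at 15.6, 19.3 and 15.9 CPM with vehicle and 5.68, 8.83 and 7.95 CPM with CP18. This was the largest fall in the list among called members (log2 fold change -1.17, standard error 0.13, adjusted p = 1.45e-05), again without overlap. JUNB was at 126, 122 and 117 CPM and 93.95, 93.7 and 98.4 CPM (log2 fold change -0.35, adjusted p = 6.98e-06). JUN, the main partner of FOS, was at 63.2, 63.1 and 66.1 CPM with vehicle and 50.6, 51.3 and 50.9 CPM with CP18, a smaller but even shift (log2 fold change -0.33, standard error 0.044, adjusted p = 8.47e-05). FOSL2 fell by 0.13 on the log2 scale, with -0.14 to -0.07 over the alternatives. Its call was lost without vehicle replicate 2 or CP18 replicate 1 and in 3 other alternatives, among them removal of the length and GC trend. FOSL1 (0.17, adjusted p = 0.395) and JUND (-0.17, adjusted p = 0.0644) were not called.

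EGR1, a zinc-finger factor induced by ERK signaling (ENSG00000120738.8, chr5:138465479-138469303, plus strand), was at 228, 246 and 227 CPM with vehicle and 129, 149.9 and 142 CPM with CP18. The fall was 39.9% (log2 fold change -0.74, standard error 0.054, adjusted p = 7.79e-08). Its relative EGR2 was near the limit of what these libraries show, at 1.22, 1.17 and 0.83 CPM and 0.206, 0.707 and 0.198 CPM, and was not called (log2 fold change -1.56, adjusted p = 0.0558). Of the nuclear receptors of the NR4A family, which act without a known ligand, NR4A1 (ENSG00000123358.20, chr12:52022832-52059507, plus strand) was at 175, 192 and 178 CPM with vehicle and 97.6, 112 and 107 CPM with CP18 (log2 fold change -0.79, standard error 0.073, adjusted p = 1.79e-06). NR4A2 went from 11.8, 12.2 and 12.8 CPM to 8.47, 7.89 and 7.26 CPM (log2 fold change -0.64, adjusted p = 0.000844), and NR4A3 fell by 0.59 on the log2 scale. All 3 members of the family were thus lower, by -0.79 to -0.59. The call of NR4A3 was lost without vehicle replicate 1 or CP18 replicate 2 and in the fit with 1 and 5 µM CP18.

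DUSP1, a phosphatase that inactivates MAP kinases (ENSG00000120129.6, chr5:172768096-172771195, minus strand), was at 263, 275 and 277 CPM with vehicle and 196, 196 and 202 CPM with CP18 (log2 fold change -0.46, standard error 0.038, adjusted p = 4.16e-07). ZFP36, which marks AU-rich messages for decay, went from 86.3, 92.7 and 83.6 CPM to 62.7, 66.4 and 65.7 CPM (log2 fold change -0.43, adjusted p = 2.03e-05). GADD45B, a stress sensor upstream of p38, went from 44.2, 48.6 and 44.5 CPM to 33.5, 32.3 and 32.1 CPM (log2 fold change -0.49, adjusted p = 4.80e-05). The falls were 27.1%, 25.7% and 28.6% of the vehicle level, with no overlap between the groups. PPP1R15A, which restores translation after stress, was lower by 0.37 on the log2 scale, and ATF3, a stress-induced repressor, by 0.52. The remaining called members were IER2 (-0.33), the Krüppel-like factors KLF2 (-0.38), KLF6 (-0.19) and KLF10 (-0.23), BTG1 (-0.20) and the secreted matrix protein CCN2, which was at 49.99, 51.5 and 55.3 CPM with vehicle and 37.2, 37.8 and 42.5 CPM with CP18. MYC (log2 fold change -0.10, adjusted p = 0.0904), MCL1 (log2 fold change -0.07, adjusted p = 0.100), KLF4 (log2 fold change -0.25, adjusted p = 0.145), CCN1 (log2 fold change -0.14, adjusted p = 0.148) and SRF itself (log2 fold change -0.06, adjusted p = 0.575) were not called.

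**Figure D2:**
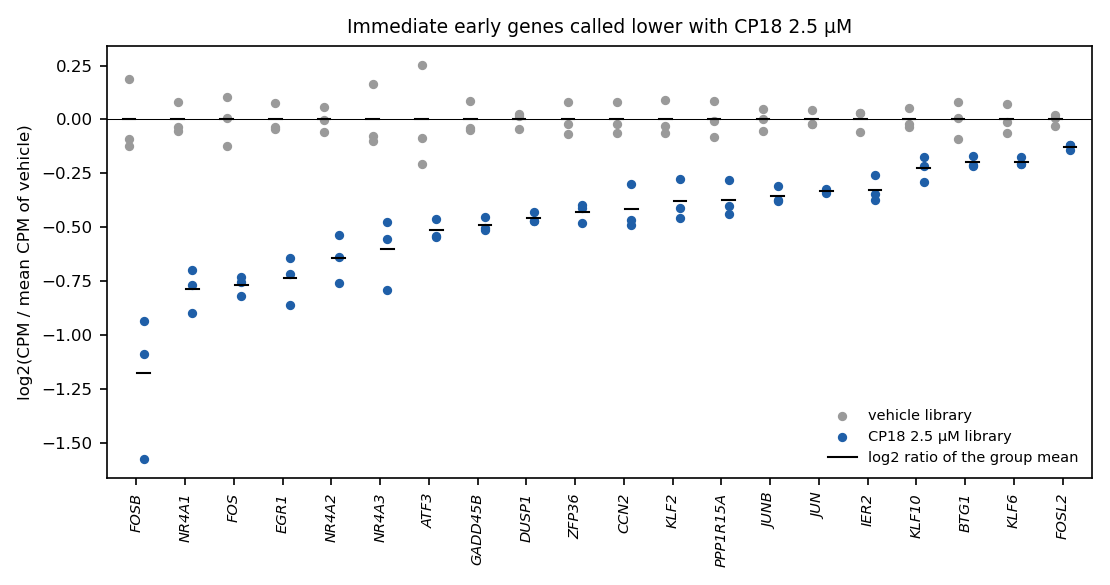
Log2 ratio of each library's CPM to the mean CPM of the vehicle libraries (vertical axis) for the 20 immediate early genes called lower; grey points are the 3 vehicle libraries, blue points the 3 CP18 libraries and black bars the log2 ratio of each group's mean. The CP18 points of FOSB, NR4A1, FOS and EGR1 lie lowest, and the shifts shrink to -0.13 in FOSL2.

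The second list with many called falls was that of hepatocyte-type and endodermal genes, here termed liver-type. Of 25 genes tested from a list of 34, 11 were called, all lower (44% against 3.63% of all genes), 22 had a negative log2 fold change and the median was -0.21. The count was 8 to 10 over the leave-one-out fits, 11 with DESeq2, 9 with the length and GC trend removed, 6 in a fit of all 54 libraries and 7 in the fit with 1 and 5 µM CP18. CPS1, the first enzyme of the urea cycle (ENSG00000021826.15, chr2:210477682-210679107, plus strand), was at 925, 944 and 867 CPM with vehicle and 692, 735 and 696 CPM with CP18. Its fall of 22.4% was among the best resolved of all genes (log2 fold change -0.37, standard error 0.031, adjusted p = 4.18e-07).

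The 3 chains of fibrinogen, the clotting protein, fell together. FGA (ENSG00000171560.15, chr4:154583126-154590742, minus strand) was at 262, 292 and 255 CPM with vehicle and 198, 199.5 and 198 CPM with CP18 (log2 fold change -0.44, standard error 0.04, adjusted p = 1.41e-06). FGG went from 137, 150.3 and 127 CPM to 101, 95.9 and 104 CPM (log2 fold change -0.46, standard error 0.047, adjusted p = 6.98e-06), and FGB from 353, 393 and 343 CPM to 299, 289.6 and 299.9 CPM (log2 fold change -0.29, adjusted p = 7.95e-05, or 0.0631 in a fit of all 54 libraries). In each of them the highest CP18 library was below the lowest vehicle library. VTN, which encodes the adhesion protein vitronectin, was at 43.2, 43.96 and 40.8 CPM with vehicle and 28.8, 29.3 and 32.1 CPM with CP18 (log2 fold change -0.50, standard error 0.083, adjusted p = 0.000852). F5, coagulation factor V, went from 53.9, 55.6 and 46.8 CPM to 39.2, 42.6 and 40.1 CPM (log2 fold change -0.36, adjusted p = 0.00107). Smaller falls were called in the fibrinogen-like gene FGL1 (-0.25) and in TFPI, the inhibitor of the tissue factor pathway (-0.17).

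Of the liver transcription factors, HNF4A was at 116, 132 and 113 CPM with vehicle and 98.3, 97.6 and 99.1 CPM with CP18 (log2 fold change -0.29, adjusted p = 0.000852). FOXA1 (log2 fold change -0.09, adjusted p = 0.402) and FOXA2 (log2 fold change -0.02, adjusted p = 0.875), which are shared with lung epithelium, were not called. Neither was complement C3 (log2 fold change -0.08, adjusted p = 0.186) nor transferrin, TF, whose value of -0.64 came with an adjusted p of 0.388. The fall therefore covered the fibrinogen chains and HNF4A but not every gene of the list.

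Among the other well-expressed genes that fell with the lowest p were CHMP1B, a subunit of the ESCRT-III membrane-cutting machinery, at 111, 113 and 105 CPM with vehicle and 86.3, 81.3 and 83.2 CPM with CP18 (log2 fold change -0.39, adjusted p = 1.79e-06), and INSL4, a placental insulin-like peptide, at 86.2, 95.7 and 78.8 CPM and 59.00, 62.00 and 58.3 CPM (log2 fold change -0.54, adjusted p = 5.38e-06). BMP6, a ligand of the bone morphogenetic protein family, had one of the larger falls, from 15.8, 19.4 and 16.1 CPM to 9.70, 10.7 and 11.7 CPM (log2 fold change -0.67, adjusted p = 0.000155). The rule that named these 3 genes required groups without overlap. In the list of TGF-β and mesenchymal genes 5 of 44 were lower (11.4% against 3.63% of all genes) and 7 higher (15.9% against 2.34%). Fibronectin, FN1, went from 315, 301 and 269 CPM to 229.7, 244 and 227 CPM (log2 fold change -0.34, adjusted p = 0.000337) and LTBP1, which tethers latent TGF-β, from 65.8, 62.2 and 61.5 CPM to 50.1, 51.9 and 47.6 CPM (log2 fold change -0.34, adjusted p = 0.000261). TPM1, a tropomyosin of actin filaments, rose from 263, 259.9 and 313 CPM to 351, 358 and 353 CPM (log2 fold change 0.34, adjusted p = 0.000274). Vehicle replicate 3 lay nearest to the CP18 libraries. The list therefore moved in both directions, with 3 to 8 higher and 4 to 5 lower over the leave-one-out fits.

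Higher with CP18 was a group of chaperones. Of 24 heat shock genes tested, 11 were called, all higher (45.8% against 2.34% of all genes), with a median log2 fold change of 0.12. The count was 7 without vehicle replicate 1, 7 without vehicle replicate 2, 13 without vehicle replicate 3, 9 without CP18 replicate 1, 11 without CP18 replicate 2, 8 without CP18 replicate 3, 13 with DESeq2, 11 with the length and GC trend removed (and then 1 lower) and 3 in the fit with 1 and 5 µM CP18. HSP90AA1, the inducible cytosolic HSP90 (ENSG00000080824.18, chr14:102080742-102139699, minus strand), was at 2426, 2375 and 2589 CPM with vehicle and 2981, 2824 and 2979.9 CPM with CP18, a rise of 18.9% (log2 fold change 0.25, standard error 0.031, adjusted p = 6.32e-05). CHORDC1 (0.20), FKBP4 (0.19), DNAJA1 (0.18), STIP1 (0.15) and AHSA1 (0.13), which work with HSP90 or HSP70, were also higher. FKBP4 was at 284, 274 and 309 CPM with vehicle and 338, 328 and 325 CPM with CP18. HSPA8, the constitutive HSP70, and HSPA4 and HSPH1, its exchange factors, rose by 0.13, 0.13 and 0.13, and the mitochondrial pair HSPD1 and HSPE1 by 0.17 and 0.14. The genes most strongly induced in a heat shock response were not called, with HSPA1A at 0.03, HSPA1B at -0.05, DNAJB1 at -0.01, BAG3 at 0.03 and HSF1 itself at -0.05. No called rise in the list exceeded that of HSP90AA1.

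Factors of ribosome assembly were higher too. Of 32 tested, 10 were called, all higher (31.2% against 2.34% of all genes), with a median of 0.10. The count was 5 without vehicle replicate 1, 6 without vehicle replicate 2, 14 without vehicle replicate 3, 5 without CP18 replicate 1, 9 without CP18 replicate 2, 6 without CP18 replicate 3, 10 with the length and GC trend removed, 6 in a fit of all 54 libraries and 3 in the fit with 1 and 5 µM CP18. NPM1, the nucleolar chaperone nucleophosmin (ENSG00000181163.13, chr5:171387116-171411810, plus strand), was at 1669, 1689 and 1757 CPM with vehicle and 1919, 1887 and 1944 CPM with CP18, a rise of 12.4% (log2 fold change 0.17, standard error 0.024, adjusted p = 0.000199, or 0.0768 in the fit with 1 and 5 µM CP18). GAR1, a core protein of the RNA-modifying H/ACA particles, went from 22.9, 27.01 and 27.7 CPM to 34.5, 30.3 and 32.9 CPM (log2 fold change 0.34, adjusted p = 0.0111, and over 0.05 without vehicle replicate 1, CP18 replicate 1 or CP18 replicate 3, up to 0.0819), and its partner DKC1 rose by 0.16. NOP58, a core protein of the C/D particles, went from 109, 109 and 119 CPM to 129.9, 127 and 132 CPM (log2 fold change 0.20, adjusted p = 0.00278), and its partner NOP56 rose by 0.12. The groups of NPM1, GAR1 and NOP58 did not overlap. The remaining called members were NOP16 (0.25), NCL (0.15), BOP1 (0.15), NOLC1 (0.13) and PES1 (0.12). Of 79 genes of the ribosomal proteins themselves, 2 were higher (2.53% against 2.34% of all genes) and 6 lower (7.59% against 3.63%). The lower count was 0 to 5 over the leave-one-out fits, 5 without vehicle replicate 3 and 0 without vehicle replicate 1 or CP18 replicate 1, and 0 were called in either direction in a fit of all 54 libraries or in the fit with 1 and 5 µM CP18. The higher count was 5 with DESeq2, 1 with the length and GC trend removed and 0 to 2 over the leave-one-out fits.

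Proteasome subunits were nearly all on the higher side. Of 32 tested, 31 had a positive log2 fold change, the median was 0.08 and 8 were called, all higher (25% against 2.34% of all genes). The calls rested on single libraries, with 1 without vehicle replicate 1, 2 without vehicle replicate 2, 11 without vehicle replicate 3, 3 without CP18 replicate 1, 6 without CP18 replicate 2 and 1 without CP18 replicate 3, and they fell to 4 with the length and GC trend removed and to 1 in the fit with 1 and 5 µM CP18. PSMD6, of the 19S lid, was at 78.99, 77.7 and 76.9 CPM with vehicle and 90.4, 85.1 and 88.6 CPM with CP18 (log2 fold change 0.18, adjusted p = 0.00325). The others were the lid subunits PSMD12 (0.14) and PSMD14 (0.11) and the ATPases PSMC1 (0.15), PSMC3 (0.14), PSMC4 (0.11), PSMC5 (0.11) and PSMC6 (0.17). Called members thus came from the 19S regulatory particle, which recognises ubiquitin-tagged proteins.

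**Figure D3:**
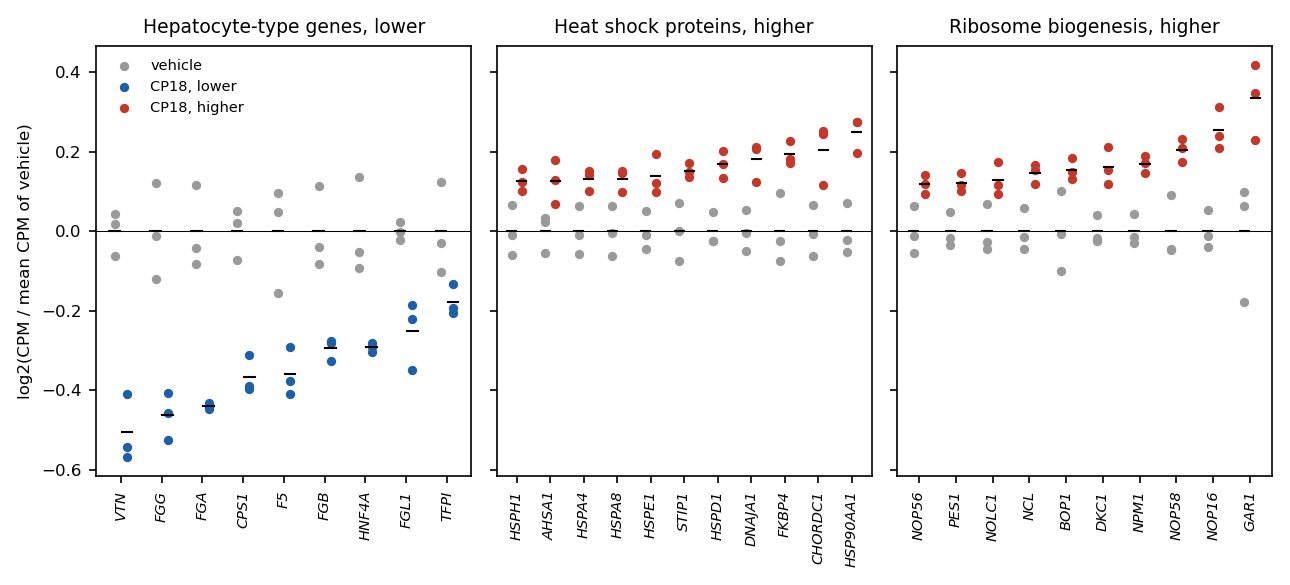
Log2 ratio of each library's CPM to the mean CPM of the vehicle libraries (vertical axis, shared) for 9 called genes of the liver-type list and the called genes of the heat shock (11) and ribosome biogenesis lists (10); grey points are vehicle libraries, blue and red points CP18 libraries of genes called lower and higher, and black bars the log2 ratio of each group's mean. Liver-type genes lie below 0, down to -0.50 in VTN, and the other 2 lists lie above it, most within 0.25.

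ALDH3A1, an aldehyde dehydrogenase (ENSG00000108602.18, chr17:19737984-19748943, minus strand), had the lowest p among rises in well-expressed genes. It was at 1021, 975 and 986 CPM with vehicle and 1174, 1158 and 1156 CPM with CP18, a rise of 17.0% (log2 fold change 0.23, standard error 0.027, adjusted p = 4.66e-05). TUBA1A, an α-tubulin, went from 87.9, 89.5 and 96.4 CPM to 112, 109.8 and 108 CPM (log2 fold change 0.27, adjusted p = 0.000126) and EIF5, a factor for start codon selection in translation, from 261, 252 and 274 CPM to 311, 301 and 319 CPM (log2 fold change 0.24, adjusted p = 7.25e-05). CCT5, a subunit of the chaperonin that folds actin and tubulin, went from 516, 515 and 553 CPM to 607, 594 and 609 CPM (log2 fold change 0.19, adjusted p = 0.000211, or 0.0789 in the fit with 1 and 5 µM CP18). The largest rise in a well-expressed gene was in AC006058.1, a long non-coding RNA (ENSG00000261786.1, chr3:44117299-44122365, plus strand), from 13.8, 13.3 and 15.8 CPM to 20.3, 24.2 and 22.3 CPM (log2 fold change 0.63, adjusted p = 0.000131). The rule that named these 5 genes required the lowest CP18 library to lie above the highest vehicle library. HSP90AA1, NPM1 and TUBA1A have close copies in the genome, and RSEM divides reads between such copies by estimate, so part of their values could belong to a copy.

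The counts of the other lists are read against 2.34% of all genes called higher and 3.63% called lower. Of 46 interferon-stimulated genes tested, the class to which ISG15 and USP18 belong, none was called by edgeR in the fit of 12 libraries or by DESeq2, 2 were higher and 1 lower at an unadjusted p under 0.05, and the median was 0.03. Other edgeR fits called 1 higher (all 54 libraries) or 1 lower (no filter, or without vehicle replicate 3). Of 15 genes of the ISG15 system and of type I interferon signaling 1 was called, the ubiquitin ligase ARIH1 (log2 fold change -0.12, adjusted p = 0.0464), and that call was lost in 5 of 6 leave-one-out fits, all but that without vehicle replicate 3, and in 5 of 11 other alternatives. Targets of NRF2, the factor of the response to oxidants, held 3 higher and 6 lower of 41. EPHX1 (-0.19), ABCC1 (-0.18) and AKR1C1 (-0.18) were among the lower ones, and ALDH3A1 (0.23), described above, was among the higher ones. The count of higher members was 1 without vehicle replicate 1, vehicle replicate 2, CP18 replicate 1 or CP18 replicate 3 and 5 without vehicle replicate 3, and the count of lower members was 2 without vehicle replicate 1, 10 without vehicle replicate 3, 3 without CP18 replicate 1, 11 with DESeq2 and 0 in the fit with 1 and 5 µM CP18. For p53 targets it was 1 higher, TP53I3 (0.17), and 2 lower, GDF15 (-0.21) and TP53INP1 (-0.23), of 35. TP53I3 lost its call in 3 of 6 leave-one-out fits and GDF15 and TP53INP1 in 4 each, so that 0 to 2 were higher and 0 to 1 lower. Without vehicle replicate 2 none was called, without vehicle replicate 1 or CP18 replicate 3 only 1 lower gene was, and without CP18 replicate 2 only 2 higher ones were. With the length and GC trend removed 2 were higher. Of 45 G2/M genes 1 was higher and 1 lower, although 38 had a positive value around a median of 0.07, and of 48 S phase genes 1 was higher and 1 lower with a median of 0.04. Without vehicle replicate 3, 4 G2/M and 5 S phase genes were higher. None was without vehicle replicate 1, vehicle replicate 2, CP18 replicate 1 or CP18 replicate 3, or with the length and GC trend removed. The lower count of G2/M genes was 0 in the same 4 leave-one-out fits and 2 without CP18 replicate 2. That of S phase genes was 0 without CP18 replicate 1 or with the trend removed, and 2 without CP18 replicate 2.

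Of 35 genes of autophagy and lysosomes, 7 were called, all lower (20%, and 3 without vehicle replicate 1, 2 without vehicle replicate 2, 4 without CP18 replicate 2, 3 without CP18 replicate 3, 2 in a fit of all 54 libraries and 0 in the fit with 1 and 5 µM CP18). One of the 7 was GABARAPL1, a protein of the autophagosome membrane, at 48.3, 53.2 and 48.3 CPM with vehicle and 40.9, 39.3 and 43.6 CPM with CP18 (log2 fold change -0.27, adjusted p = 0.00406, or 0.0607 in the fit with 1 and 5 µM CP18). Glucocorticoid-responsive genes held 5 lower and 1 higher of 16. SGK1, a kinase that controls ion channels, went from 69.5, 67.9 and 66.02 CPM to 54.5, 54.3 and 53.2 CPM (log2 fold change -0.33, adjusted p = 0.00121) and PDK4, which shuts pyruvate out of mitochondrial oxidation, from 279, 290.1 and 261 CPM to 234, 233 and 233 CPM (log2 fold change -0.24, adjusted p = 0.000126). Without CP18 replicate 1, 3 of the 5 were called. XBP1, a factor of the unfolded protein response, went from 163, 174 and 154 CPM to 134, 136 and 139.8 CPM (log2 fold change -0.26, adjusted p = 0.000358), 1 of 4 lower genes among 29 of that response (1 without CP18 replicate 3, 2 without CP18 replicate 2 or vehicle replicate 2, and 2 in a fit of all 54 libraries, in the fit with 1 and 5 µM CP18 or with the length and GC trend removed). AHR, the aryl hydrocarbon receptor, went from 95.6, 97.3 and 88.8 CPM to 77.7, 76.8 and 78.4 CPM (log2 fold change -0.27, adjusted p = 0.000298), while its targets CYP1B1 (0.21) and TIPARP (0.29) were higher. TIPARP lost its call in 5 of 6 leave-one-out fits, all but that without vehicle replicate 3, and CYP1B1 without vehicle replicate 2 or CP18 replicate 2. The list of AhR targets holds AHR itself among its 10 tested genes. Of these 10, 1 was higher when either of the last 2 libraries was left out, against 3 with all. DUSP5, which is specific for nuclear ERK, went from 69.7, 69.5 and 66.1 CPM to 49.2, 55.2 and 54.6 CPM (log2 fold change -0.37, adjusted p = 0.000164), 1 lower beside 4 higher genes of 30 in the list of ERK-responsive genes, and the growth factor genes AREG (0.24) and EREG (0.28) were among the higher ones. The lower count was 3 without vehicle replicate 3, and in the fit with 1 and 5 µM CP18 the higher count was 1 and neither AREG (adjusted p = 0.0813) nor EREG (0.153) was called. E-cadherin, CDH1, went from 218, 223 and 213 CPM to 178, 189 and 182 CPM (log2 fold change -0.25, adjusted p = 0.000641).

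Of 24 actin and tubulin genes 5 were higher and 1 lower (3 higher without vehicle replicate 1, vehicle replicate 2 or any 1 CP18 library, and 9 without vehicle replicate 3). The lower count was 3 without CP18 replicate 2 or without a filter, and 2 with DESeq2. Of 43 targets of ATF4, the factor of the amino acid response, 4 were higher and 3 lower, and the higher ones rested on single libraries (0 without vehicle replicate 1, vehicle replicate 2, CP18 replicate 1 or CP18 replicate 3, 2 without CP18 replicate 2 and 6 without vehicle replicate 3). Of 28 NF-κB targets BIRC3 (0.24) and NFKB2 (0.25) were higher and CXCL2 (-0.54) and BCL3 (-0.20) lower. CXCL2 and BCL3 both lost their call without vehicle replicate 1, vehicle replicate 2, CP18 replicate 1 or CP18 replicate 3, NFKB2 without vehicle replicate 1, vehicle replicate 2 or CP18 replicate 1 and BIRC3 without CP18 replicate 1. In cholesterol synthesis, the regulators SREBF1 (-0.16) and SREBF2 (-0.15) were lower and the enzyme HMGCS1 (0.12) was higher, among 28 genes with 2 called in each direction. Without vehicle replicate 1 none of them was called, without CP18 replicate 1 or CP18 replicate 3 none was called higher, and HMGCS1 lost its call without vehicle replicate 2 as well. With the length and GC trend removed, SREBF1 and SREBF2 lost theirs, and 0 were lower. Of 13 genes encoded in mitochondrial DNA MT-CYB (0.25), MT-ND4 (0.26), MT-ND5 (0.32) and MT-ATP8 (0.42) were called higher (30.8%), but 1 to 2 without any 1 library other than vehicle replicate 3, 1 with DESeq2 or in the fit with 1 and 5 µM CP18 and 0 in a fit of all 54 libraries, against 7 in the fit with the CP14 libraries, 9 in a fit of the 2 groups alone and 10 without a filter. Of 54 nuclear genes of the respiratory chain 2 were lower, 0 without CP18 replicate 1 or CP18 replicate 3 and 3 without vehicle replicate 3. Histone genes that depend on replication (19 tested) and genes of PARP and NAD metabolism (18 tested) had no edgeR call in the fit of 12 libraries, with 2 and 3 at an unadjusted p under 0.05 and with 0 and 1 by DESeq2. In other edgeR fits, 2 histone genes were called lower without vehicle replicate 3 and 1 without a filter. Of the PARP and NAD genes 3 were called lower without a filter, and 1 without vehicle replicate 3, with at least 10 counts in every library, with the replicate block, with small RNAs left out or in the fit with the CP14 libraries.

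**Figure D4:**
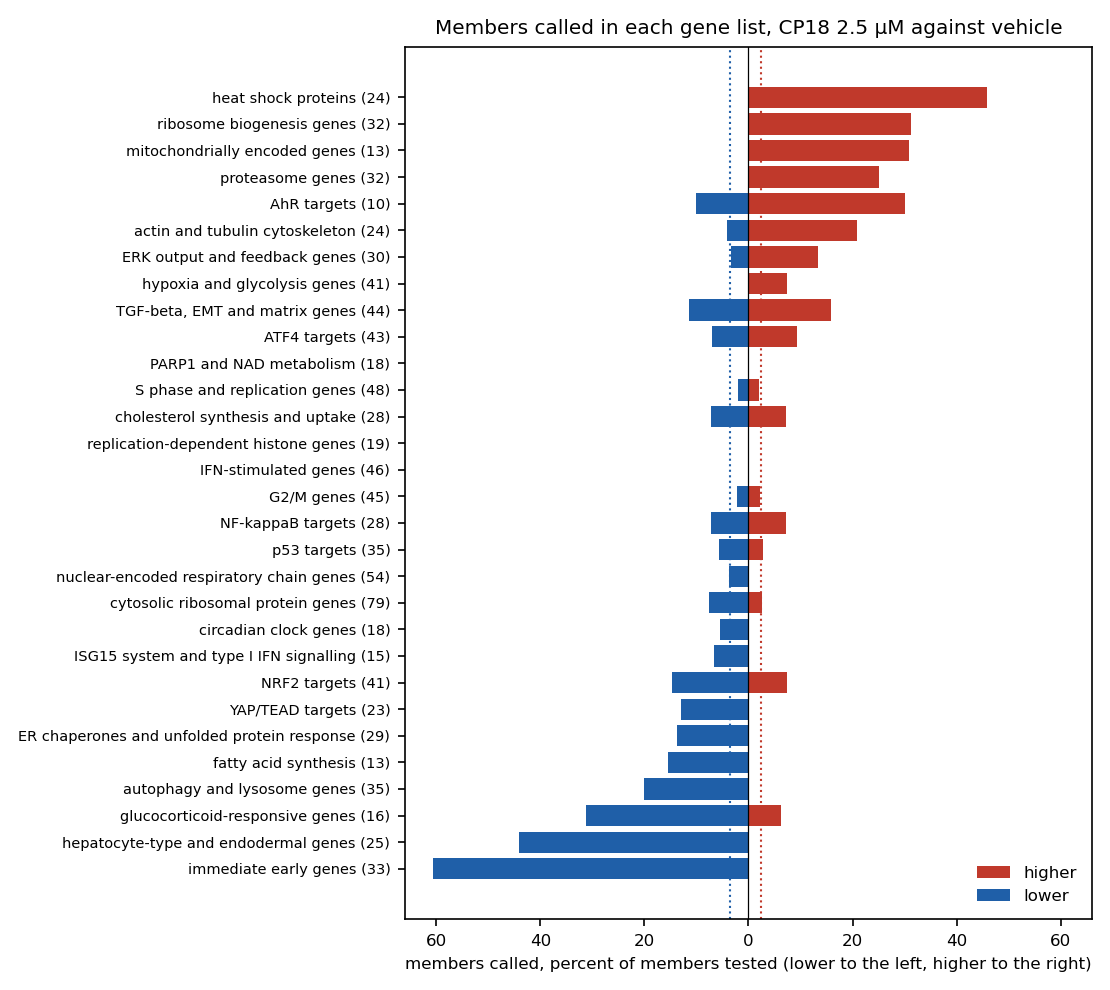
Percent of the tested members of each gene list with at least 10 of them, other than small RNAs and A549 marker genes, that were called higher (to the right) or lower (to the left) with CP18, with the number tested in brackets and dotted lines at the shares of all genes tested, 2.34% higher and 3.63% lower. Immediate early (60.6%) and liver-type genes (44%) reach furthest left, heat shock (45.8%), ribosome biogenesis (31.2%), mitochondrially encoded genes (30.8%), AhR targets (30%) and proteasome genes (25%) furthest right.

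Few genes passed the size threshold of the study's methods, a log2 fold change over 1, and most of those were weakly expressed. They numbered 30 of 15747 (0.191%), 8 higher (0.0508%) and 22 lower (0.14%), of which 20 had a mean under 10 CPM and 17 had overlapping groups. The count was 16 without vehicle replicate 1, 10 without vehicle replicate 2, 48 without vehicle replicate 3 and 16 without CP18 replicate 1. DESeq2 gave 0 higher and 5 lower, and a filter of at least 10 counts in every library gave 0 higher and 10 lower. SMIM11A had the lowest p of the rises at low level, with 0.281, 1.45 and 0.909 CPM in vehicle libraries and 11.2, 9.89 and 1.83 CPM in CP18 libraries (log2 fold change 3.13, adjusted p = 0.000852, or 0.0799 in a fit of all 54 libraries). SMIM11B, a near-identical copy chosen after its values were seen, moved the other way, with 12.8, 9.73 and 13.3 CPM and 2.17, 4.53 and 11.4 CPM (log2 fold change -0.98, adjusted p = 0.0472, not called by DESeq2 or in 5 of 6 leave-one-out fits). Summed, the pair was at 13.1, 11.2 and 14.2 CPM with vehicle and 13.4, 14.4 and 13.2 CPM with CP18, so the groups overlapped. ZNF559-ZNF177, a read-through transcript that shares exons with its 2 neighbors, showed 4, 0 and 3 counts in the vehicle libraries and 11, 8 and 22 in the CP18 libraries, and AACSP1, a pseudogene, 4, 3 and 6 and 11, 14 and 18. The call of ZNF559-ZNF177 was lost without vehicle replicate 2 or CP18 replicate 3 and in the fit with 1 and 5 µM CP18. That of AACSP1 was lost in 4 of 6 leave-one-out fits and without a filter. PCDHA2, a protocadherin of the clustered α family, showed 8, 5 and 5 counts in the vehicle libraries and 0, 0 and 0 in the CP18 libraries. FAM220A held 237, 0 and 376 counts in the vehicle libraries and 0, 2 and 1 in the CP18 libraries, so its call rests on vehicle replicates 1 and 3 and its groups overlap.

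Small RNAs without a poly(A) tail were among the largest falls. Of 10 tested, 7 were called lower with a median log2 fold change of -1.96, but in all 10 the groups overlapped and DESeq2 called 0. Summed, they were at 213, 495 and 67.3 CPM in the vehicle libraries and 67.6, 35.4 and 103 CPM in the CP18 libraries, so vehicle replicate 3 lay among the CP18 libraries. RPPH1, the RNA of ribonuclease P and the largest fall among well-expressed genes, was at 15.3, 42.8 and 3.00 CPM with vehicle and 2.06, 0.353 and 3.66 CPM with CP18 (log2 fold change -3.23, adjusted p = 0.00894, and over 0.05 without vehicle replicate 2 or CP18 replicate 1). RN7SL1, of the signal recognition particle, was at 83.6, 185 and 27.5 CPM and 30.4, 17.4 and 42.5 CPM. The number called was 3 without vehicle replicate 1, 0 without vehicle replicate 2, 9 without vehicle replicate 3, 0 without CP18 replicate 1, 1 without CP18 replicate 2 and 6 without CP18 replicate 3. They lack the poly(A) tail by which, per the labels, RNA was captured, and the part of capture in the result was not tested. With them left out before scaling, 960 genes were called and 20 passed the size threshold.

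CP18 was also given to empty-vector cells at 1 and 5 µM, and the values of the same genes are set side by side from 1 fit of the 12 libraries, whose 3 comparisons share the vehicle libraries and were not tested against each other. In that fit 2 of 15509 genes were called at 1 µM (0.0129%), 149 at 2.5 µM (0.961%, with 0.258% higher and 0.703% lower) and 1286 at 5 µM (8.29%, with 4.41% higher and 3.88% lower). The 2 at 1 µM were MACF1 (0.51) and SYNE1 (0.54), which link the cytoskeleton to other structures and which at 2.5 µM were at -0.05 and 0.03. The log2 fold change of FOS was -0.26 at 1 µM, -0.76 at 2.5 µM and -0.01 at 5 µM. For EGR1 it was -0.26, -0.73 and 0.40, for FOSB -0.24, -1.17 and 0.74, for NR4A1 -0.31, -0.78 and 0.01, and for JUN -0.0082, -0.32 and 0.48. The median of the immediate early list was -0.14, -0.32 and 0.09. Of its 33 members tested, 14 were called lower at 2.5 µM, and 12 higher and 5 lower at 5 µM. At 5 µM members of the list were thus called in both directions.

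Medians of the liver-type, heat shock, ribosome biogenesis and proteasome lists lay further from 0 at 5 µM than at 2.5 µM. CPS1 was at -0.04, -0.36 and -0.48 at the 3 doses, FGG at -0.26, -0.45 and -0.62, and HNF4A at -0.08, -0.28 and -0.48. The list of liver-type genes had medians of 0.02, -0.21 and -0.32. Of 25 tested, 7 were lower at 2.5 µM and 13 at 5 µM, against 0.703% and 3.88% of all genes. HSP90AA1 was at 0.03, 0.26 and 0.38, NPM1 at 0.05, 0.18 and 0.24, and ALDH3A1 at 0.07, 0.24 and 0.38. The heat shock list had medians of -0.01, 0.13 and 0.21, with 3 of 24 higher at 2.5 µM and 17 at 5 µM. Ribosome biogenesis had 0.01, 0.11 and 0.13, with 3 and 13 of 32. Proteasome subunits had -0.02, 0.09 and 0.10, with 1 and 11 of 32. Of all genes, 0.258% were higher at 2.5 µM and 4.41% at 5 µM, so the counts at these doses are read against different shares. MT-ND5, at -0.29, 0.33 and -0.0054, did not follow the order of the doses.

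**Figure D5:**
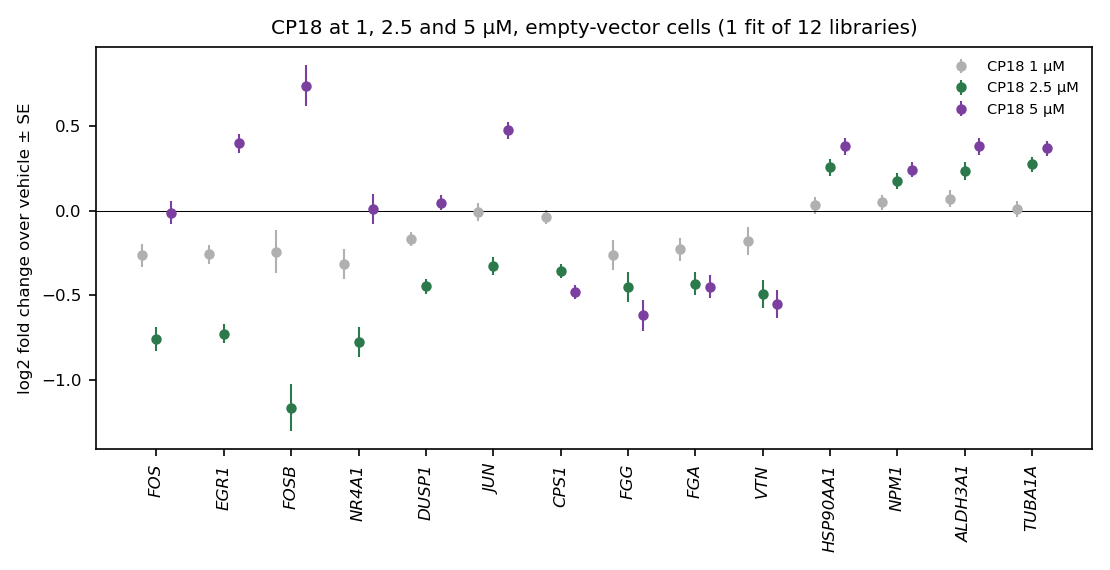
Log2 fold change against vehicle, with standard errors, of 14 genes at 1, 2.5 and 5 µM CP18 in empty-vector cells, from 1 fit of 12 libraries that share the 3 vehicle libraries. The 6 immediate early genes shown are lowest at 2.5 µM and near or above 0 at 5 µM, whereas the liver-type genes, HSP90AA1 and the other rises have their largest values at 5 µM.

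The same dose was given to cells with a USP18 expression vector, which asks whether added USP18 alters the response. There, 2235 of 15747 genes were called (14.2%), 1132 higher (7.19%) and 1103 lower (7%), and the difference between the cell types, tested as an interaction in the same fit, was called for 31 genes (0.197%), 11 with a positive value (0.0699%) and 20 with a negative one (0.127%), with 1349 at an unadjusted p under 0.05. Of the 31, 15 were called in empty-vector cells. EGR1 had the clearest difference. In USP18 cells it was at 90.8, 92.9 and 98.2 CPM with vehicle and 91.4, 107 and 89.4 CPM with CP18, with a vehicle level below that of empty-vector cells and without the fall seen there (log2 fold change 0.02, interaction 0.76, 95% interval 0.59 to 0.93, adjusted p = 0.000110). JUN was at 26.3, 25.6 and 27.1 CPM with vehicle and 28.5, 31.1 and 31.2 CPM with CP18 in USP18 cells, a change of 0.20 against -0.33 in empty-vector cells (interaction 0.54, 95% interval 0.40 to 0.68, adjusted p = 0.000822). For FOS the response was -0.43 in USP18 cells and -0.77 in empty-vector cells, but the interaction was not called (0.33, 95% interval 0.17 to 0.50, adjusted p = 0.117). DUSP1 (interaction 0.09, 95% interval -0.03 to 0.21) and NR4A1 (0.09, 95% interval -0.13 to 0.31) were not called either, and their intervals include 0.

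NRG1, a ligand of the ERBB receptors, responded in opposite directions. It rose in empty-vector cells, from 82.5, 83.2 and 89.7 CPM to 102, 93.7 and 98.4 CPM (log2 fold change 0.20, adjusted p = 0.00404, or 0.121 in the fit with 1 and 5 µM CP18), and fell in USP18 cells, from 75.1, 75.8 and 78.7 CPM to 65.4, 67.6 and 66.2 CPM (log2 fold change -0.21, adjusted p = 0.00210), with an interaction of -0.41 (95% interval -0.53 to -0.29, adjusted p = 0.00213). GPRC5A, a retinoic acid-induced receptor of lung epithelium, differed by -0.02 in empty-vector cells and by -0.45 in USP18 cells, where it went from 545, 548 and 584 CPM to 413, 437 and 377 CPM (interaction -0.43, 95% interval -0.55 to -0.31, adjusted p = 0.00110). Counts by list in USP18 cells are read against 7.19% of all genes called higher and 7% called lower there. Of 33 immediate early genes 13 were lower and 1 higher with a median of -0.04, and 3 had a called interaction (EGR1, JUN and IER2). Of 25 liver-type genes 11 were lower and 1 higher there (median -0.16). Heat shock genes had 12 of 24 higher (0.12), ribosome biogenesis 17 of 32 (0.13) and proteasome subunits 19 of 32 (0.12). Other lists also had more calls there than in empty-vector cells. S phase genes had 27 higher and 1 lower of 48, against 1 and 1, with 2 called interactions. G2/M genes had 19 higher and 2 lower of 45, against 1 and 1. NRF2 targets had 16 higher and 5 lower of 41, against 3 and 6. Of 29 genes of the unfolded protein response 20 were lower, against 4, and 0 higher in either cell type. USP18, which these cells express from the vector, was at 1294, 1283 and 1320.4 CPM with vehicle and 1059, 1079 and 1021 CPM with CP18 (log2 fold change -0.30, adjusted p = 7.67e-08), and the interaction for this gene was not called (-0.26, adjusted p = 0.178).

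CP14 was the other coded compound given at 2.5 µM for the same 48 h, which allows 1 matched pair of compounds. Fitted with the shared vehicle libraries, 637 of 15433 genes differed between CP18 and CP14 (4.13%, adjusted over genes), 332 higher with CP18 (2.15%) and 305 lower (1.98%). Of the genes named for this pair, those outside the immediate early and liver-type lists were chosen after their values were seen. Against vehicle, CP14 changed FOS by -0.96 and CP18 by -0.76, and the difference between compounds was not called (0.20, 95% interval 0.08 to 0.32, adjusted p = 0.0544). For EGR1 the difference was -0.15 (95% interval -0.26 to -0.04, adjusted p = 0.117), for FOSB 0.13 (-0.22 to 0.47, adjusted p = 0.747) and for DUSP1 -0.07 (-0.13 to -0.0016, adjusted p = 0.258). JUN did differ, since it was at 70.3, 64.2 and 64.4 CPM with CP14 (log2 fold change against vehicle 0.06) and lower with CP18 by a difference of -0.39 (95% interval -0.48 to -0.29, adjusted p = 5.18e-05). JUNB (0.21) and NR4A2 (0.52) were higher with CP18 than with CP14, and KLF2 (-0.46) and KLF6 (-0.25) lower.

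The compounds also differed in genes of the amino acid response, where CP18 was lower than CP14 for 14 of 43 ATF4 targets, read against 1.98% of all genes lower and 2.15% higher. ASNS, asparagine synthetase, was at 97.02, 94.3 and 101 CPM with vehicle, 104, 102 and 103 CPM with CP18 and 148, 136 and 153 CPM with CP14, a difference of -0.51 (95% interval -0.59 to -0.42, adjusted p = 6.28e-07). PHGDH (-0.48), PSAT1 (-0.32) and ALDH1L2 (-0.70), of serine synthesis and one-carbon metabolism, and BCAT1 (-0.72), of branched-chain amino acid breakdown, were lower with CP18 as well, and so were 18 of 79 ribosomal protein genes. The genes of amino acid metabolism named here were raised by CP14 against vehicle, by 0.59 for ASNS and 0.95 for BCAT1. CP18 was higher than CP14 for 13 NRF2 targets of 41, among them NQO1 (0.12, adjusted p = 0.00936), and for 14 genes of hypoxia and glycolysis of 41, among them the glucose transporter gene SLC2A3 (0.39, adjusted p = 3.50e-07). Of the liver-type genes, CPS1 fell less with CP18 than with CP14 (0.18, adjusted p = 0.00826), while FGA (0.12, 95% interval 0.04 to 0.21) and VTN (0.06, -0.06 to 0.18) were not called. HSP90AA1 (-0.04, 95% interval -0.11 to 0.03) and USP18 (-0.05, -0.26 to 0.16) were not called between the compounds either.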

How the data were processed

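Gene expression was measured by RNA sequencing of A549 cells with an empty vector or a USP18 expression vector. According to the submitters' processing notes and the methods, reads were demultiplexed with bcl2fastq, trimmed with cutadapt 1.18, aligned with STAR 2.7.0f to hg38 and quantified per gene with RSEM (1.3.1 in the notes, whereas the methods give another version and a GENCODE mouse annotation, although the identifiers are human). The authors deposited the resulting expected counts (RSEM's estimates, 94% of them whole) in 1 table, with no scaling across libraries. The labels describe oligo-dT capture, whereas the methods describe depletion of ribosomal RNA. The chi-square per gene between replicates was 2.37 to 4.45 in the empty-vector groups given vehicle or 2.5 µM of CP18 or CP14, more than sampling noise gives, so no replicate there repeats another. The other groups were not checked in this way.

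After rounding, genes were filtered with filterByExpr (min.count 10, min.total.count 15), scaled by TMM and tested by the quasi-likelihood method of edgeR 4.0.16 under R 4.3.3, with Benjamini-Hochberg adjustment over all genes. The 12 libraries given vehicle or 2.5 µM CP18, with either vector, were fitted together, and contrasts were taken for each vector and for the interaction. CP18 and CP14 were compared in a fit of 9 libraries with vehicle, and the doses in a fit of 12. A gene was called at an adjusted p under 0.05, and the size threshold was a log2 fold change over 1. The limit of detection was set at 3 counts per library, which covers counting error only. The procedure was tested on simulated counts, whose outcome is not reported here. The alternatives tried were DESeq2 1.42.0, RLE scaling, a looser filter (any gene with a count) and a stricter one (10 counts in each library), a block for the replicate number, fits of the compared groups alone or of all 54 libraries, leave-one-out fits and, chosen after seeing the data, removal of the trend with length and GC content, exclusion of small RNAs before scaling, and fits with the 1 and 5 µM or the CP14 libraries.

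Named genes were the 8 lowest p and 5 largest changes in each direction among called well-expressed genes (mean of at least 10 CPM) without overlap, USP18, ISG15 and NQO1, up to 4 called members of each gene list, and the 3 lowest p in each direction past the size threshold at low level. Further members of the lists, JUN, IER2, GPRC5A, NRG1, LIMCH1, SLC2A3, ASNS, PHGDH, PSAT1, ALDH1L2, BCAT1, PCNA, SMIM11B, MACF1 and SYNE1 were named after their values were seen. Some genes that met the rule are not reported here. The genes and lists were chosen with earlier results of these data known. Coordinates are from GENCODE 44 (GRCh38), which held 58517 of the 58870 identifiers, and promoter sequences from RefSeq (GRCh38.p14). RSEM divides reads among near-identical copies by estimate, and whether it used strand is not given in the sources used here.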

Additional observations from a re-analysis of the deposited data

Results flagged for a closer look

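The response to 2.5 µM CP18 differed between empty-vector cells and USP18 cells, by the interaction in the fit of 12 libraries (edgeR's quasi-likelihood test), for 11 named genes. Positive values stand for a change that lies higher in USP18 cells than in empty-vector cells.

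EGR1 (0.76, adjusted p = 0.000110) fell in empty-vector cells and stayed near its vehicle level in USP18 cells, JUN (0.54, adjusted p = 0.000822) fell in the first and rose by 0.20 in the second, NRG1 (-0.41, adjusted p = 0.00213) rose in the first and fell in the second, and GPRC5A (-0.43, adjusted p = 0.00110) differed by -0.02 in the first and -0.45 in the second. These 4 interactions were called in every alternative tried. The interactions of LIMCH1, an actin-associated protein (-0.29, with changes of -0.15 and -0.44), and of SLC2A3, a glucose transporter (-0.27, with changes of -0.08 and -0.35), were lost only when all 54 libraries were fitted, with adjusted p of 0.272 and 0.387.

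The other interactions were less stable. IER2 (0.32) lost its call in 7 of 12 leave-one-out fits, SLC38A2, an amino acid transporter (-0.23), in 6, FEN1, a nuclease of DNA replication (0.24), in 9, and PCNA, the replication clamp (0.18), in 10. The value for FAM220A (13.56) rests on a handful of libraries with counts, and its call was lost in 8 leave-one-out fits.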

How the results depend on the processing

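Without 1 library at a time, the number of genes called in empty-vector cells ran from 372 to 1145 (939 with all), that past the size threshold from 10 to 48 (30), well-expressed genes from 357 to 1072 (891), interactions from 11 to 41 (31) and genes that differed between CP18 and CP14 from 307 to 500 (637). With all 54 libraries in 1 fit the 5 counts were 530, 16, 496, 5 and 393. With the 1 and 5 µM libraries, the first 3 were 149, 10 and 142. Without a filter, 91 genes passed the size threshold, 203 interactions and 1001 differences from CP14 were called, and with at least 10 counts in every library 10 genes passed the size threshold. DESeq2 gave 5 genes past the size threshold and 62 interactions. The cause of these shifts was not tested, except that leaving out a library leaves fewer samples. The sign of ISG15 turned without CP18 replicate 1 (-0.10, with a range of -0.10 to 0.58 over the leave-one-out fits) and that of GPRC5A in empty-vector cells with the length and GC trend removed (0.021), neither called. Replicate numbers did not pair vehicle with CP18 libraries in empty-vector cells (correlation of deviations of 0.014, -0.048 and -0.101). In USP18 cells the correlations were -0.080, -0.053 and -0.0016. Between the cell types they were -0.088, 0.198 and 0.093 with vehicle and 0.133, 0.109 and -0.027 with CP18. With the replicate block 883 genes were called, 843 of them among the 939. Of these counts, 25 were past the size threshold and 838 well expressed, beside 30 interactions and 645 differences from CP14. The other settings left each of these counts within 1.5 times its value, and the median of all genes stayed between -0.0062 and 0.0065. Less can be said of genes under 10 CPM, where 20 of the 30 genes past the size threshold lie. The part of depth in this was not tested.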
